A study of Mus musculus with 12 samples.

Results

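Nox1 and 6 genes of the NADPH oxidase complexes, Cyba, Cybb, Ncf1, Ncf4, Rac1 and Rac2, were followed in bone marrow plasma cells of mice, to ask whether the partner subunits moved with Nox1. The 7 genes were taken by name from a day 60 table of 14219 genes, and all 7 were present. Nox1 was chosen by its difference between marked and unmarked cells in these libraries, and the partners for their role. RNA was sequenced from plasma cells of C57BL/6 mice of genotype BLTcre.mcl1fl/+, in which tamoxifen switches on a human CD4 reporter. Marked cells are the human CD4+ sort and unmarked cells the human CD4- sort. The 4 groups were marked and unmarked cells sorted 270 days after tamoxifen, and marked and unmarked cells sorted 60 days after it, with 3 libraries each. All 4 groups carried the BLTcre allele and 1 floxed Mcl1 allele, so no group was free of either. Whether marked cells had lost the floxed Mcl1 allele was not measured, so marking and such a loss cannot be told apart. The labels give neither the age or sex of the mice nor any pooling. Sample descriptions tie each marked library to the unmarked library of the same specimen. The labels do not say whether a specimen was a single mouse, so p-values measure the spread between these samples, which may be technical.

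NADPH oxidases move electrons from NADPH across a membrane to oxygen and so make superoxide. Nox1 and Cybb (also called Nox2) are alternative catalytic subunits, and Cyba encodes p22phox, the membrane partner that both need to be stable. Ncf1 (p47phox) and Ncf4 (p40phox) are cytosolic subunits that join Cybb when the phagocyte enzyme is activated, and the small GTPases Rac1 and Rac2 complete the active complex. Noxo1 and Noxa1 are the organizer and activator that usually serve Nox1. Nox1 is best known from colon epithelium and smooth muscle, and Cybb from phagocytes and B cells.

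The libraries held 7449468 to 15943547 reads and between 11022 and 13506 genes with a read. Day 270 marked replicates 2 and 3 had the fewest genes, 11022 and 11301, and in replicate 2 the J chain gene took 7.904% of reads, against 15.41 to 31.27% in the other 11 libraries. All 8 plasma cell markers were present, and their summed level ran from 89990 to 325800 CPM (reads divided by the library's total and brought to a common total). Mcl1 averaged 438 ± 66.7 CPM in day 270 marked cells, 555 ± 31.7 in day 270 unmarked cells, 414 ± 85.6 in day 60 marked cells and 520 ± 32.2 in day 60 unmarked cells (SD, n = 3 each). The mean was lower in marked than in unmarked cells at both days. Reads over the whole gene do not check the floxed part, so loss of the floxed allele was not tested. Replicate 1 of every group had neighbouring library numbers, while replicates 2 and 3 of the marked and of the unmarked cells had separate number ranges. There, marking and library number cannot be told apart, so values of replicate 1 alone are given where a result needs them.

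Nox1 (ENSMUSG00000031257, GRCm38 chromosome X, 134086421 to 134221956, minus strand) was higher in marked than in unmarked cells of every specimen. In replicates 1, 2 and 3 it stood at 205.2, 254.1 and 180.7 CPM in day 270 marked cells, against 85.34, 126.3 and 87.07 CPM in day 270 unmarked cells. At day 60 it stood at 129.4, 119.7 and 171.7 CPM in marked cells, against 76.70, 44.73 and 45.56 CPM in unmarked cells. Marked and unmarked libraries did not overlap at either day, as for 3.28% of all 12704 genes tested at day 270 and 4.46% at day 60 in this direction. These levels rest on 521 to 3271 reads per library. The fitted log2 fold change, on log2(CPM + 0.5), was 1.10 ± 0.23 at day 270 and 1.35 ± 0.23 at day 60 (SE). Replicate 1 alone gave 205.2 CPM in marked and 85.34 CPM in unmarked cells at day 270, and 129.4 CPM in marked and 76.70 CPM in unmarked cells at day 60. In bulk libraries, fewer cells of a type and less RNA per cell cannot be told apart. Nox1 was picked for its difference between marked and unmarked cells, so these values are a description and carry no test. For the same contrast at day 60, the authors' deposited table gives a log2 fold change of 1.51, and for day 270 marked against day 60 unmarked cells 1.94.

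The 4 group levels of Nox1 ran in the order day 270 marked, day 60 marked, day 270 unmarked, day 60 unmarked. The means were 213 ± 37.4 CPM in day 270 marked, 140 ± 27.7 in day 60 marked, 99.6 ± 23.2 in day 270 unmarked and 55.7 ± 18.2 in day 60 unmarked cells (SD, n = 3 each). The middle neighbours overlapped, since the lowest day 60 marked library had 119.7 CPM and the highest day 270 unmarked library 126.3 CPM. The outer neighbours did not, although the gap between day 270 marked and day 60 marked cells was only that between 180.7 and 171.7 CPM.

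**Figure D1:**
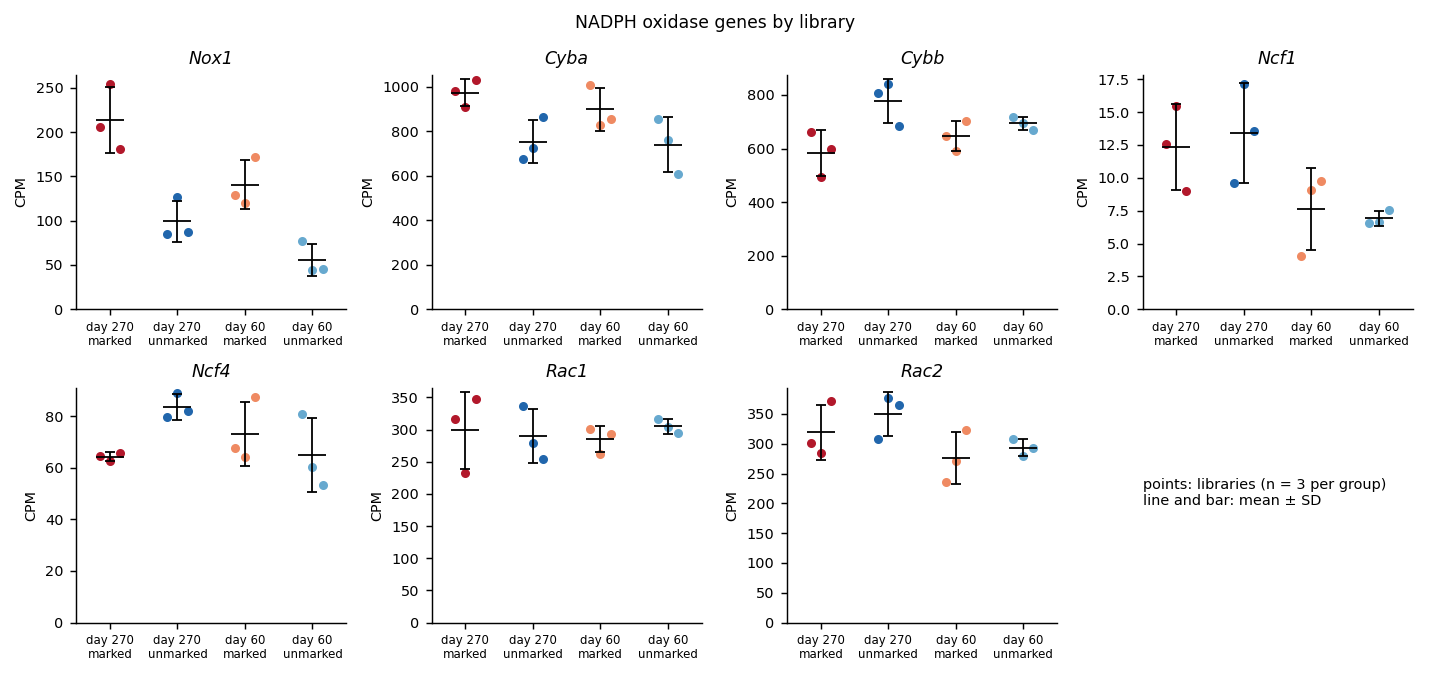
CPM of the 7 genes in each library (points), with the mean and SD of each group of 3, on axes that start at 0. Nox1 is separated by marking at both days, while Rac1, with all libraries between 231.7 and 347.1 CPM, overlaps between all groups.

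The promoter sequences of the 2 catalytic subunits are shown because Nox1 and Cybb, which can take the same place in the enzyme, had unlike patterns in these cells. They are RefSeq sequences from build GRCm38.p6, from 250 bases before to 50 bases after the annotated start, written along the gene's own strand. The Nox1 window is chrX:134111805-134112104 and the Cybb window chrX:9469275-9469574, both on the minus strand and both inside gene spans of the GENCODE annotation that begin further upstream. Capitals mark 3 motifs searched on both strands. TGATAA is a GATA-type site, and only these exact letters were searched. GAAA, any 2 bases and GAAA form an interferon-response type element, and GGAA, any 2 bases and GAAA an Ets-IRF type element. The motifs were chosen with the expression results known, and no 2 matches printed here overlap.
Nox1: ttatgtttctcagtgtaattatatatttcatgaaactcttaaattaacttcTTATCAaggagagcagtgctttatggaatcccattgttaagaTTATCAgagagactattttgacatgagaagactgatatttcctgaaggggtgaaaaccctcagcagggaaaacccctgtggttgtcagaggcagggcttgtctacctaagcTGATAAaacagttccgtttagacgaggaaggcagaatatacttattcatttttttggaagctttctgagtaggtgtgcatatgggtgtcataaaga
Cybb: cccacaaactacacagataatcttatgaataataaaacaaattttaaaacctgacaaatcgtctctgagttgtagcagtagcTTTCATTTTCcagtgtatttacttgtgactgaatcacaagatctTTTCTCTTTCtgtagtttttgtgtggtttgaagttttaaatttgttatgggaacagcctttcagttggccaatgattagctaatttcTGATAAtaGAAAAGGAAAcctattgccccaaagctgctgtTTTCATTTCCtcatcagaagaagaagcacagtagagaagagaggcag

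The Nox1 window held 3 matches to TGATAA, with leftmost bases at -199, -157 and -46 (the annotated start base is 0), and no match to either of the other motifs. Cybb held 1 match to TGATAA at -37, 3 to the interferon-response type at -168, -124 and -29, and 1 to the Ets-IRF type at 3. Of 32851 promoters of this length, 9.05% held TGATAA, 3.44% the interferon-response type and 2.72% the Ets-IRF type. TGATAA occurred at least 3 times in 0.0852% of them and the interferon-response type in 0.0152%. Both windows were poor in G and C, with 38% in Nox1 and 35.3% in Cybb, against a median of 52.7% over all promoters. A match to these letters is a description of the sequence and was not measured as a bound site. Whether the matches bear on the unlike patterns of Nox1 and Cybb was not tested.

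None of the 6 partner genes was called different between marked and unmarked cells at either day by limma (adjusted p under 0.05 over 12704 genes). At day 270 the share of all genes called was 0.48%, and at day 60 it was 0.189%. None was called either with both days averaged, where 1.84% of genes were called. Among the 6, Cyba was the one with higher values in the marked cells of every specimen, and Cybb and Rac1 each lay lower in 5 of 6. Counts by gene set these in context: all 6 specimens were higher in marked cells for 1.85% of the 12704 genes, and at least 5 of 6 were lower for 26.9%. The marked against unmarked fold changes of all genes had a median of -0.22 (log2) at day 270 and -0.13 at day 60. Relative to TMM scaling, scaling to the total shifted that median by -0.12 at each day.

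Cyba (ENSMUSG00000006519, chromosome 8, 122424776 to 122432930, minus strand), the membrane partner of both catalytic subunits, had 979.1, 908.5 and 1029 CPM in day 270 marked cells, against 673.5, 722.4 and 862.8 CPM in day 270 unmarked cells. Day 60 marked cells had 1009, 826.9 and 855.8 CPM, against 854.4, 757.9 and 605.9 CPM in day 60 unmarked cells. The groups did not overlap at day 270, as in the 3.28% of all genes for which every marked library was higher, and they overlapped at day 60. The log2 fold change was 0.37 ± 0.16 at day 270 (adjusted p = 0.317, limma) and 0.29 ± 0.16 at day 60 (adjusted p = 0.858, limma). With both days averaged it was 0.33 ± 0.12 with a 95% interval of 0.09 to 0.57 (adjusted p = 0.166, limma). That average passed the threshold with DESeq2 (adjusted p = 0.00566) and with limma on library weights (adjusted p = 0.0467), settings that called 4.3% and 4.95% of all genes. DESeq2 size factors in limma also passed it (adjusted p = 0.0498, with 2.4% of genes called). In single specimens the log2 difference ran from 0.13 to 0.54, which is smaller than the range for Nox1 of 0.75 to 1.90.

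Cybb (ENSMUSG00000015340, chromosome X, 9435252 to 9487771, minus strand), the other catalytic subunit, had 663.6, 493.6 and 597.9 CPM in day 270 marked cells, against 806.2, 839.6 and 685.7 CPM in day 270 unmarked cells. The day 270 groups did not overlap, which held in this direction for 12% of all genes. Day 60 marked cells had 645.1, 589.4 and 703.3 CPM, against 718.2, 696.0 and 668.8 CPM in day 60 unmarked cells, and these overlapped. The log2 fold change was -0.41 ± 0.15 at day 270 (adjusted p = 0.245, limma) with a 95% interval of -0.74 to -0.09. At day 60 it was -0.11 ± 0.15 (adjusted p = 0.982, limma), and it turned positive, by at most 0.02, with DESeq2, edgeR, TMM scaling or DESeq2 size factors. The authors' deposited table gives 0.03 for Cybb and 0.42 for Cyba at day 60.

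The cytosolic subunits showed no common direction. Ncf4 (ENSMUSG00000071715, chromosome 15, 78244801 to 78262580, plus strand) had 64.67, 62.42 and 65.68 CPM in day 270 marked cells, all below the 79.63, 89.01 and 81.79 CPM of day 270 unmarked cells, as for 12% of all genes. At day 60 it had 67.46, 64.24 and 87.42 CPM in marked cells and 80.83, 60.35 and 53.47 CPM in unmarked cells, which overlapped. Its log2 fold change was -0.37 ± 0.20 at day 270 (adjusted p = 0.415, limma) and 0.18 ± 0.20 at day 60 (adjusted p = 0.956, limma). The difference between these effects was -0.55 ± 0.28 and was not called (adjusted p = 1, limma). No gene was called in that comparison (0% of 12704 by limma, with 387 genes at an unadjusted p under 0.05 and 5 called by DESeq2).

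Ncf1 (ENSMUSG00000015950, chromosome 5, 134220053 to 134229625, minus strand), which brings the cytosolic subunits to the membrane, was the lowest of the 7, with as few as 50 reads in a library. It had 12.61, 15.44 and 8.981 CPM in day 270 marked cells and 9.574, 17.13 and 13.56 CPM in day 270 unmarked cells. Day 60 marked cells had 4.045, 9.041 and 9.743 CPM and day 60 unmarked cells 6.582, 6.610 and 7.570 CPM. Marked and unmarked libraries overlapped at both days. The 95% interval of its log2 fold change ran from -1.03 to 0.81 at day 270 and from -0.88 to 0.96 at day 60. These were the widest intervals of the 7 genes.

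Rac1 (ENSMUSG00000001847, chromosome 5, 143503634 to 143528036, minus strand), the widely expressed GTPase, had 317.0, 231.7 and 347.1 CPM in day 270 marked cells and 336.0, 278.4 and 253.9 CPM in day 270 unmarked cells. Its day 60 values were 301.2, 262.7 and 292.9 CPM in marked cells and 316.8, 303.5 and 294.3 CPM in unmarked cells. These lay close together. Every marked day 60 library was below its own specimen's unmarked library, in replicate 3 by only 292.9 against 294.3 CPM. The day 60 log2 fold change of Rac1 was -0.10, against a median of -0.13 over all genes. It turned positive with DESeq2, edgeR, TMM scaling or DESeq2 size factors. Rac2 (ENSMUSG00000033220, chromosome 15, 78559167 to 78572783, minus strand), the blood cell form, had 300.5, 284.9 and 371.7 CPM in day 270 marked cells and 308.5, 376.4 and 364.7 CPM in day 270 unmarked cells. Its day 60 values were 236.6, 270.8 and 323.0 CPM in marked cells and 308.0, 279.9 and 292.8 CPM in unmarked cells. Both genes overlapped between marked and unmarked cells on both days, and the 95% intervals of the 4 log2 fold changes lay between -0.48 and 0.39.

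**Figure D2:**
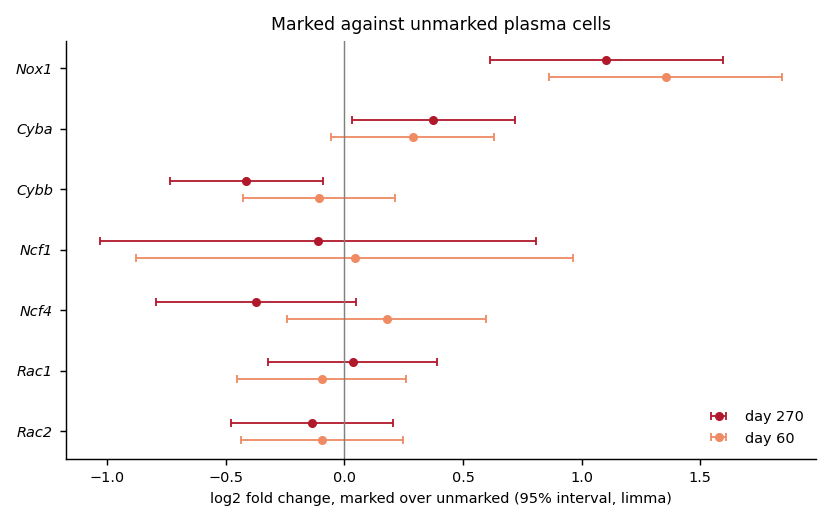
Fitted log2 fold change of marked over unmarked cells for the 7 genes at day 270 (dark) and day 60 (light), with 95% intervals from limma (3 libraries a group). Nox1 stands at 1.10 and 1.35, and all partner estimates lie between -0.41 and 0.37.

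Inside a library, Nox1 was higher relative to the other catalytic subunit in marked cells. Ratios of reads do not depend on the scaling of libraries. There were 30.92, 51.48 and 30.22 Nox1 reads per 100 Cybb reads in day 270 marked cells, against 10.58, 15.05 and 12.70 in day 270 unmarked cells. At day 60 there were 20.06, 20.31 and 24.42 in marked cells, against 10.68, 6.427 and 6.811 in unmarked cells. Every marked library lay above every unmarked library of either day. Per kilobase of merged exon length, Nox1 made up 35.19, 47.48 and 34.67% of the sum of Nox1 and Cybb in day 270 marked cells, and 15.68, 20.90 and 18.23% in day 270 unmarked cells. At day 60 this share was 26.05, 26.29 and 30.01% in marked cells and 15.79, 10.14 and 10.68% in unmarked cells. Cybb was the larger of the pair in all 12 libraries. Since these ratios hold Nox1, they are a description with no test.

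Nox1 also stood higher relative to its membrane partner. There were 20.95, 27.97 and 17.57 Nox1 reads per 100 Cyba reads in day 270 marked cells, against 12.67, 17.49 and 10.09 in day 270 unmarked cells. At day 60 the values were 12.83, 14.47 and 20.06 in marked cells, against 8.978, 5.902 and 7.518 in unmarked cells. Marked and unmarked libraries did not overlap on either day, with the lowest day 270 marked library at 17.57 and the highest unmarked one at 17.49.

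The ratio of Cyba to Cybb does not include Nox1. It was 147.6, 184.1 and 172.0 Cyba reads per 100 Cybb reads in day 270 marked cells, against 83.54, 86.04 and 125.8 in day 270 unmarked cells. At day 60 it was 156.4, 140.3 and 121.7 in marked cells, against 119.0, 108.9 and 90.60 in unmarked cells. The ratio was higher in marked cells of 6 of 6 specimens, by a mean of 0.59 ± 0.30 on the log2 scale (SD), a 1.508-fold difference. This ratio was chosen after its values were seen, so the difference is a description with no test. Replicate 1 alone gave 147.6 in marked and 83.54 in unmarked cells at day 270, and 156.4 in marked and 119.0 in unmarked cells at day 60. Without any 1 specimen the mean lay between 0.49 and 0.64.

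**Figure D3:**
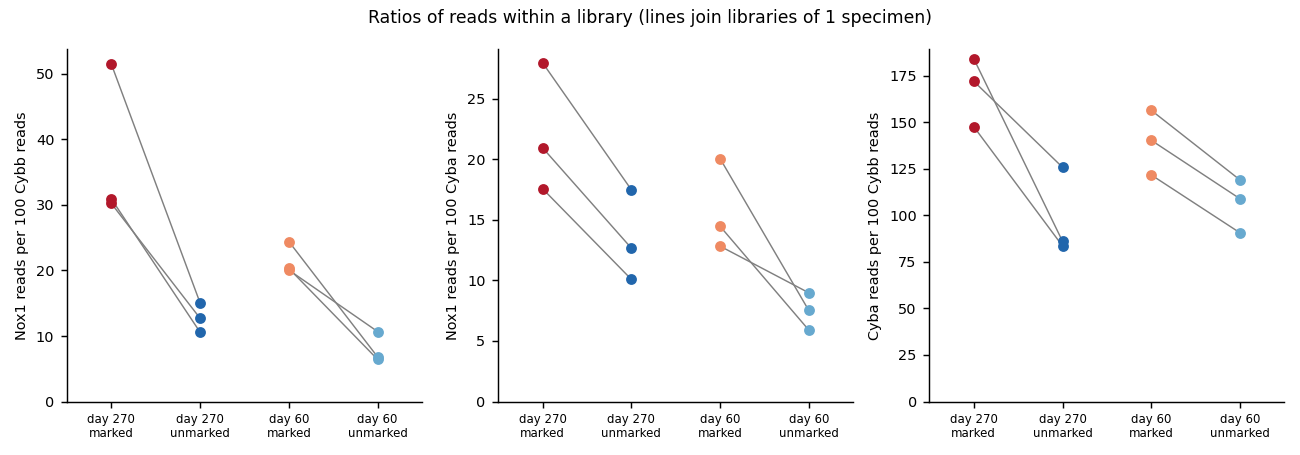
Nox1 reads per 100 Cybb reads, Nox1 reads per 100 Cyba reads and Cyba reads per 100 Cybb reads in each library (points), with lines joining marked and unmarked libraries of 1 specimen. All 6 lines fall from marked to unmarked in each panel, and the lowest marked value of the left panel is 20.06 against a highest unmarked value of 15.05.

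Levels of different genes were compared per kilobase of merged exon length, as means over the 12 libraries. Cyba was the highest at 809 CPM per kilobase, followed by Cybb at 116, Rac2 at 99.8, Rac1 at 65.5, Nox1 at 38.5, Ncf4 at 35.4 and Ncf1 at 2.75. Nox1 varied most over the libraries, with a coefficient of variation of 51.1%, against 38.6% for Ncf1 and 11.4 to 16.4% for the other 5 genes. Nox1 was chosen for a difference between groups of these libraries, so its wider variation follows in part from that choice.

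Between day 270 and day 60 none of the 7 genes was called in either population. In marked cells 0.0315% of genes were called by limma. In unmarked cells the share was 0% by limma, with 378 genes at an unadjusted p under 0.05, and limma with library weights called 0.622%. Nox1 was higher at day 270 in both populations, by 0.61 ± 0.23 (log2) in marked cells (adjusted p = 0.418, limma) and by 0.86 ± 0.23 in unmarked cells (adjusted p = 0.757, limma). With library weights the unmarked difference passed the threshold (adjusted p = 0.0348, limma). The day 60 unmarked libraries, where Nox1 was low, also served to choose it, so these p-values for Nox1 are not an independent test. Every day 270 library exceeded every day 60 library in both populations, which held for 6.46% of all genes in marked and 10.4% in unmarked cells. Relative to TMM scaling, scaling to the total shifted the median of all genes by 0.10 in marked and 0.11 in unmarked cells. The difference between the days of the marked against unmarked effect on Nox1 was -0.25 ± 0.33 and was not called (adjusted p = 1, limma).

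Averaged over both populations, a comparison added after the values were seen, Nox1 was higher at day 270 by 0.73 ± 0.17 and was not called (adjusted p = 0.0823, limma, where 0.189% of genes were called). It passed the threshold with DESeq2 (adjusted p = 0.0271), with library weights (adjusted p = 0.0325) and without day 60 unmarked replicate 1 (adjusted p = 0.0206), and its adjusted p ran up to 0.325 over the other settings. Ncf1 had the largest day estimates of the 7 and wide errors, at 0.72 ± 0.44 in marked cells (adjusted p = 0.626, limma) and 0.87 ± 0.44 in unmarked cells (adjusted p = 1, limma). All day 270 unmarked Ncf1 libraries lay above all day 60 unmarked ones, as for 10.4% of all genes, while in marked cells they overlapped. The day 60 libraries also served to choose Nox1, so its day differences and their p-values, here too, are not independent of that choice.

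Among the other oxidase and complex genes, Hvcn1, Cybc1 and Rap1a are described. Noxo1, Noxa1, Nox3, Nox4, Rac3 and the Duox and Duoxa genes were not analysed here. Hvcn1, the voltage-gated proton channel that offsets the charge moved by the oxidase in phagocytes and B cells, was lower in marked cells with both days averaged. It had 85.55, 42.69 and 88.08 CPM in day 270 marked cells, against 139.7, 132.8 and 113.4 CPM in day 270 unmarked cells. Day 60 marked cells had 92.86, 79.35 and 92.51 CPM, against 134.6, 121.6 and 164.1 CPM in day 60 unmarked cells. The groups did not overlap on either day, which held in this direction for 12% of all genes at day 270 and 11.3% at day 60. Its log2 fold change with both days averaged was -0.78 ± 0.17 (adjusted p = 0.0205, limma). The call was lost without any 1 of 5 libraries, day 60 marked replicate 2, day 60 unmarked replicates 1 and 3, and day 270 unmarked replicates 1 and 2, with adjusted p between 0.0565 and 0.0814.

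Cybc1, the chaperone needed for Cybb and Cyba to mature, had a log2 fold change with both days averaged of -0.16 ± 0.14 (adjusted p = 0.595, limma). Rap1a, a small GTPase found with the oxidase of phagocytes, had 0.15 ± 0.10 (adjusted p = 0.498, limma).

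**Figure D4:**
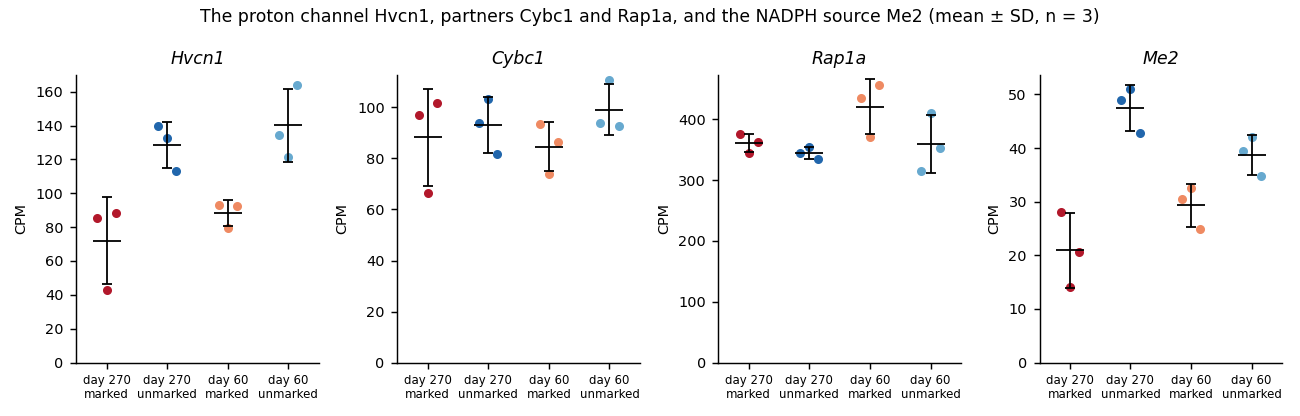
CPM in each library (points) with the mean and SD of each group of 3, for the proton channel Hvcn1, the partners Cybc1 and Rap1a, and the NADPH-producing enzyme Me2. Hvcn1 lies between 42.69 and 92.86 CPM in marked cells and between 113.4 and 164.1 CPM in unmarked cells.

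Genes that feed or follow the enzyme showed few differences with both days averaged. Of 16 tested Rac regulators and oxidase-activating kinases none was called, with a median log2 fold change of -0.25 against -0.18 for all genes. The most abundant were the Rac-binding GDP-dissociation inhibitors Arhgdia at -0.10 ± 0.13 (adjusted p = 0.741, limma) and Arhgdib at -0.15 ± 0.11 (adjusted p = 0.502, limma). Of 12 tested genes of NADPH supply 1 was called, lower, where 1.84% of all genes were called. This was Me2, the mitochondrial malic enzyme, with 28.16, 14.10 and 20.56 CPM in day 270 marked cells, against 48.88, 51.00 and 42.76 CPM in day 270 unmarked cells. At day 60 Me2 had 30.58, 32.48 and 24.85 CPM in marked cells, against 39.41, 41.98 and 34.75 CPM in unmarked cells. No marked library of Me2 reached the lowest unmarked one of its day, as for 12% of all genes at day 270 and 11.3% at day 60. The log2 fold change was -0.81 ± 0.19 (adjusted p = 0.0314, limma). With the specimen as a block it was not called (adjusted p = 0.0617), nor with edgeR (adjusted p = 0.0645), nor without any 1 of the day 60 libraries or day 270 unmarked libraries (adjusted p up to 0.107).

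The pentose phosphate enzymes Taldo1 and Pgls, the most abundant of the NADPH list, had -0.06 ± 0.13 and 0.00 ± 0.12. Of 14 tested genes that remove superoxide or peroxide none was called, with a median of -0.05. The peroxiredoxin Prdx4, abundant in secretory cells, had -0.05 ± 0.11 (adjusted p = 0.849, limma), and thioredoxin Txn1 had -0.11 ± 0.10 (adjusted p = 0.610, limma).

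Over the 12 libraries, the genes whose log2 levels followed Nox1 most closely among 9231 with a mean of at least 5 CPM were Slc12a2, Mt2, Tmem205, Sgip1 and March8. Their Pearson correlations were 0.95 for Slc12a2, 0.94 for Mt2, 0.92 for Tmem205, 0.90 for Sgip1 and 0.90 for March8. The correlations are a description over libraries that share specimens, groups and depth. Slc12a2, a sodium, potassium and chloride cotransporter, averaged 666 ± 27.5 CPM in day 270 marked cells, 308 ± 88.4 in day 270 unmarked cells, 457 ± 94.0 in day 60 marked cells and 175 ± 26.8 in day 60 unmarked cells (SD, n = 3 each). Mt2, a metallothionein that binds zinc, averaged 571 ± 20.6 CPM in day 270 marked cells, 372 ± 74.2 in day 270 unmarked cells, 387 ± 99.6 in day 60 marked cells and 175 ± 57.8 in day 60 unmarked cells (SD, n = 3 each). For both, as for Nox1, the mean was highest in day 270 marked and lowest in day 60 unmarked cells. Both were picked for their likeness to Nox1 in these libraries, so this shared order follows largely from that choice.

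Among the partner genes, the same measure was highest for Cyba, at 0.70, which ranked 194 among the 9231 genes. It was 0.43 for Ncf1, 0.19 for Ncf4, 0.12 for Rac2, -0.20 for Rac1 and -0.46 for Cybb. Nox1 was chosen for its difference between marked and unmarked cells, so this measure partly repeats that difference. With the mean of each group removed, differences between groups no longer count. Ncf4 was then the partner closest to Nox1 at 0.80, a value exceeded by 27 of 9230 genes. Cyba fell to 0.18, exceeded by 2930 genes. The other values were 0.43 for Ncf1, 0.28 for Rac2, 0.21 for Cybb and -0.22 for Rac1. The removed means leave 8 degrees of freedom. None of Slc12a2, Mt2, Tmem205, Sgip1 and March8 was among the 5 closest genes with group means removed.

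Genes of other cells that express oxidase subunits were present at levels that differed between libraries. Summed markers of neutrophils, which carry much Cybb, Ncf1 and Ncf4, lay at 88.50 to 604.0 CPM in day 270 marked cells, 46.30 to 247.7 in day 270 unmarked cells, 1.941 to 846.6 in day 60 marked cells and 25.39 to 311.6 in day 60 unmarked cells (14 of 14 markers in the table). None of the 14 was called with both days averaged. In day 60 marked replicate 1, the library with 1.941 CPM of neutrophil markers, Nox1 stood at 129.4, Cybb at 645.1 and Ncf1 at 4.045 CPM, the last being the lowest Ncf1 value. Day 60 marked replicate 2, with 846.6 CPM of neutrophil markers, had 589.4 CPM of Cybb and 9.041 CPM of Ncf1. Summed monocyte and macrophage markers (14 of 14) lay at 311.8 to 741.3 CPM in day 270 marked cells, 184.5 to 378.1 in day 270 unmarked cells, 166.6 to 295.4 in day 60 marked cells and 105.5 to 370.4 in day 60 unmarked cells.

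B cell markers (10 of 10) summed to 1224 to 1606 CPM in day 270 marked cells against 2218 to 2428 CPM in day 270 unmarked cells, and to 1402 to 1542 CPM in day 60 marked cells against 2093 to 2350 CPM in day 60 unmarked cells. With both days averaged Cd79a (-1.23 ± 0.13, adjusted p = 6.1e-05, limma) and Fcmr (-1.62 ± 0.21, adjusted p = 0.000458, limma) were called lower in marked cells. B cells also carry Cybb and Hvcn1, and the part of B cell RNA in the lower Hvcn1 and Cybb values was not tested. Erythroid markers (7 of 9 in the table) ran the other way, at 179.7 to 788.0 CPM in day 270 marked cells against 28.54 to 165.6 in day 270 unmarked cells, and 106.9 to 346.3 CPM in day 60 marked cells against 37.30 to 62.93 in day 60 unmarked cells, and 4 globin genes were called higher with both days averaged. The part of erythroid RNA in the Cyba and Nox1 values was not tested.

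Markers of the tissues best known for Nox1 were near 0. Of 7 smooth muscle markers 2 were in the table, summing to 0.439 to 4.11 CPM in day 270 marked cells, 0.644 to 1.64 in day 270 unmarked cells, 0.971 to 1.90 in day 60 marked cells and 0.172 to 2.34 in day 60 unmarked cells. Of 10 intestinal epithelium markers 2 were in the table, summing to 0 to 0.376 CPM in day 270 marked cells, 2.48 to 4.23 in day 270 unmarked cells, 0.809 to 1.19 in day 60 marked cells and 0.773 to 4.65 in day 60 unmarked cells. T and NK cell markers (5 of 10 in the table) summed to at most 30.2 CPM and megakaryocyte markers (6 of 6) to at most 61.7 CPM in any library.

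**Figure D5:**
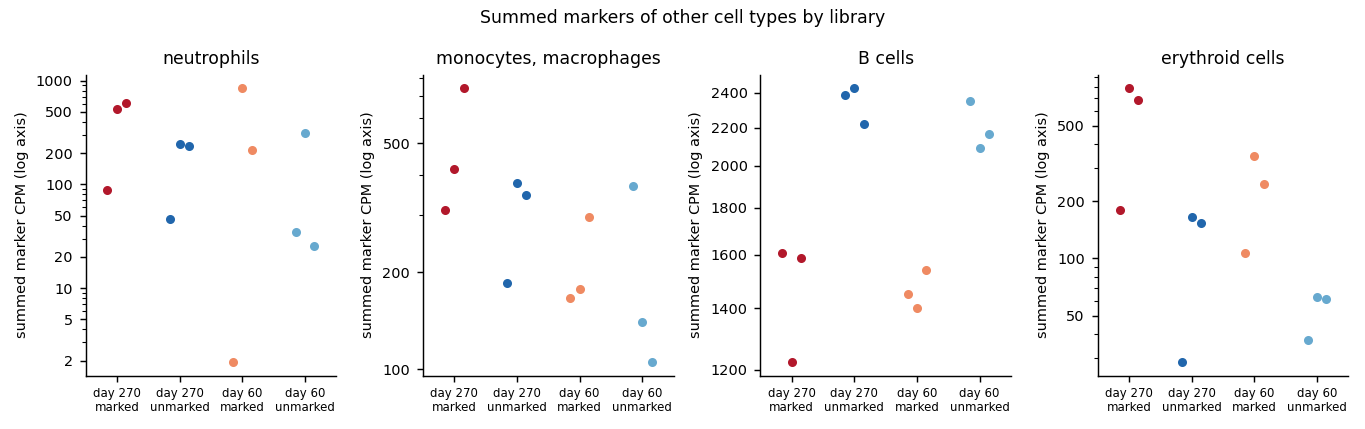
Summed CPM of the markers of 4 other cell types in each library (points), on log axes. B cell markers are lower in all marked libraries (1224 to 1606) than in all unmarked ones (2093 to 2428), and neutrophil markers spread from 1.941 to 846.6 within day 60 marked cells.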

How the data were processed

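TruSeq RNA libraries were made from RNeasy Micro preparations, per the labels' protocols. The submitters' processing notes name the build GRCm38 and limma. Aligner, counter, annotation and gating remain not given in the sources used here. All 7 genes and all lists were chosen with earlier results of these data known.

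Per the file headers, the authors' deposited tables hold CPM for 14219 genes in 12 libraries, log2 fold changes with a p-value and FDR per gene, and counts for 230 genes. CPM columns gave whole reads back: of values below 1000 reads, 131943 of 131943 came within 0.05 of an integer, and the counts of the 230 genes matched. Of the 14219 identifiers 14165 had a name in the reference. Gene positions and lengths come from GENCODE, promoters from RefSeq.

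The main test was limma 3.58.1 (trended prior) in R 4.3.3 on log2(CPM + 0.5), with 1 coefficient per group over 12 libraries, edgeR's filter at a minimum count of 10 (12704 genes kept, all 7 among them) and Benjamini-Hochberg adjustment, called under 0.05. It was tested on simulated data. Alternatives were edgeR 4.0.16 quasi-likelihood and DESeq2 1.42.0 on the recovered reads, limma-voom, TMM and DESeq2 size factors, pseudocounts of 0.1 and 2, other filters, library weights, the compared libraries alone, leaving out each library, and the specimen as a block. The pairing comes from the descriptions: same-specimen residuals correlated at a median of 0.0556 over 6 pairs, against -0.0194 over 12 pairs of different specimens. The text names all 7 genes, the called and the 2 most abundant genes of each oxidase-related list, Mcl1 and the 5 genes most like Nox1. Cybc1, neither called nor among the 2 most abundant of its list, was named in addition. Some genes of these lists are not reported here.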

Additional observations from a re-analysis of the deposited data

How the results depend on the processing

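With Nox1 left aside, the count of called partner genes was 0 at day 270 and at day 60 under all alternatives run. With both days averaged it became 1 (Cyba) with DESeq2, with DESeq2 size factors and with library weights. In unmarked cells, day 270 against day 60, 1 of the 7 genes (Nox1) was called with library weights, a comparison not independent of how Nox1 was chosen. Of the 5 genes most like Nox1, 2 remained by Spearman correlation and 0 with group means removed. The specimen as a block left 0 partners called at each day and with both days averaged, and of the named results with a test it ended that of Me2 (adjusted p = 0.0617).

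Nox1 kept its direction throughout, with log2 fold changes of 0.97 to 1.32 at day 270 and 1.20 to 1.61 at day 60. Small partner estimates changed sign, and none of them was called; the cause was not tested. At day 60, with DESeq2, edgeR, TMM scaling and DESeq2 size factors in turn, Cybb became 0.0164, 0.0242, 0.0207 and 0.0135, Rac1 0.0330, 0.0413, 0.0321 and 0.0249, and Rac2 0.0261, 0.0331, 0.0327 and 0.0255. Ncf1 at day 60 became -0.0478 with limma-voom. At day 270 Ncf1 became 0.0924 with DESeq2, 0.0585 with edgeR, 0.0159 with TMM scaling, 0.0469 with DESeq2 size factors and 0.1126 with library weights, Rac1 -0.0186 with library weights, and Rac2 0.0205 with DESeq2 and 0.0250 with DESeq2 size factors. Leaving out 1 library, Ncf1 ran from -0.17 to 0.42 and Rac2 from -0.2123 to 0.0119 at day 60, and at day 270 Ncf1 from -0.3259 to 0.0915 and Rac1 from -0.0848 to 0.2063.

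Counts over all genes moved by more than 1.5 times between settings: 61 at day 270 (0 to 482), 24 at day 60 (3 to 163), 234 with both days averaged (97 to 629), 4 in marked cells between days (0 to 161), 0 in unmarked cells (0 to 79), 0 for the difference between days of the marked effect (0 to 5) and 24 for both populations averaged between days (3 to 142). Of the 7 genes Ncf1, with as few as 50 reads in a library, has the widest intervals.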
